A study of Mus musculus with 8 samples.

Results

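The genes described here are 9 members of the glutathione cycle, Gclc, Gclm, Gss, Gsr, Gpx1, Gpx2, Ggt1, Chac1 and Oplah, taken by symbol from both deposited tables. They are 9 of the 40178 genes listed in either table, and all 9 passed the filter on low counts in every comparison. The set was chosen by the fold changes of knockout against wild type in these same libraries, so the genotype values of the members, and their differences between tissues, are given below as a description without p-values, and calls among them are counted only beside the background. The difference between ileum and colon in WT was not itself used to choose them and was tested. It rests on the same WT libraries as the knockout effects, so it is not independent of the choice. That in DDX5ΔIEC was tested too, but it equals the WT difference plus the difference of the knockout effects that chose the set.

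Glutathione, the main thiol of the cell, is a tripeptide of glutamate, cysteine and glycine. Glutamate-cysteine ligase and glutathione synthetase build it, peroxidases spend it on the reduction of peroxides, and glutathione reductase restores it with NADPH. On the breakdown side, the membrane enzyme gamma-glutamyltransferase opens glutathione outside the cell, Chac1 degrades it in the cytosol, and 5-oxoprolinase, the product of Oplah, turns the resulting 5-oxoproline back into glutamate. The intestinal epithelium carries much of this traffic, since it meets dietary and luminal peroxides and takes up amino acids and peptides.

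RNAseq was performed on intestinal epithelial cells (IECs) that were lifted from the colon and the ileum of 8-week-old mice by EDTA washes. The wild-type mice (WT) were DDX5(+/+), Vil1Cre(+) and the knockout mice (DDX5ΔIEC) were DDX5(fl/fl), Vil1Cre(+), so both carried the Cre. They were cohoused littermates, from breeding that included C57BL/6 stock, with 2 mice of each genotype and 1 library per mouse and tissue, 8 in all. Vil1Cre is driven by the Villin 1 promoter along the whole intestinal epithelium and spares other cell types in the washes. Vil1 itself was at 648 to 687 CPM in the colon libraries and 1906.54 to 2797.58 CPM in the ileum libraries.

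The libraries held 11571061 to 22984283 counted reads each. Ddx5, an RNA helicase and the deleted gene, lay at 706 and 771 CPM in the WT colon, 355 and 367 in the DDX5ΔIEC colon, 700.3 and 700.5 in the WT ileum, and 326 and 340 in the DDX5ΔIEC ileum. Every knockout library was below every wild-type library of its tissue, with log2 fold changes of -1.04 and -1.07, and none was at 0. CPM are read counts divided by library size, with TMM scaling over the 8 libraries. All 11 epithelial markers were above 0 in every library, with summed levels of 11694.5 to 19074.0 CPM, and the 12 stromal, muscle and endothelial markers summed to 8.81 to 20.7 CPM. Genes that resemble repeats, Gm10800, Gm10801 and Gm21738, took 19.5% of the reads of DDX5ΔIEC ileum replicate 2, against at most 4.04% of any other library. In such bulk samples, fewer cells of a type and less RNA per cell cannot be told apart.

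The start regions of the members were read from RefSeq windows on GRCm38.p6, which run from 250 bases before a start to 50 after it. Windows were matched for 6 of the 9 members, with 4 separate starts for Ggt1; Oplah, Gclc and Gsr were not matched. The windows of Gclm and Chac1 are shown because each holds the letters of an element known from its gene's family: the core of the antioxidant response element, TGACNNNGC, and that of the C/EBP-ATF response element, TGATGNAA, both searched on either strand. Capitals mark the match, which is on the minus strand in both. The Gclm window is chr3:122245307-122245606 (plus strand gene), with its match 134 bases before the start, and the Chac1 window is chr2:119350992-119351291 (plus strand gene), with its match 193 bases before the start.
Gclm: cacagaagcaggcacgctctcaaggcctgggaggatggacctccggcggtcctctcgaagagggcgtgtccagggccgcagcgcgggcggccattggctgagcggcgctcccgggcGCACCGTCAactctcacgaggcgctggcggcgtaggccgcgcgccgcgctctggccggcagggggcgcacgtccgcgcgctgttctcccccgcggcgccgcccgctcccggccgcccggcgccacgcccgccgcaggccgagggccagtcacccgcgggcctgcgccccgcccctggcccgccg
Chac1: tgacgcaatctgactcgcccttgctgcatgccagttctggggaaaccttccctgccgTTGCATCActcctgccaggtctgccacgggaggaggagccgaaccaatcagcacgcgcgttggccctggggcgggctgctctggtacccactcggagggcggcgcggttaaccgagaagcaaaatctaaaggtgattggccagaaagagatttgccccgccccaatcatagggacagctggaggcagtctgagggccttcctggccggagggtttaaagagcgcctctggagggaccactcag
The antioxidant core also stood in 3 of the 4 Ggt1 windows. It was found in 12.4% of all 32851 windows, and the C/EBP-ATF core in 3.97%. These matches describe letters and not bound sites.

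Of the members, Oplah was the one that was higher in the DDX5ΔIEC libraries of both tissues without overlap. Ggt1 and Chac1 were higher in the DDX5ΔIEC ileum alone, and the 6 genes of synthesis, peroxide reduction and recycling stayed within a log2 fold change of 0.20 in either direction. Between tissues the order was different: Ggt1, Gsr and Gpx2 were higher in the ileum, and Oplah and Gclc in the colon.

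**Figure D1:**
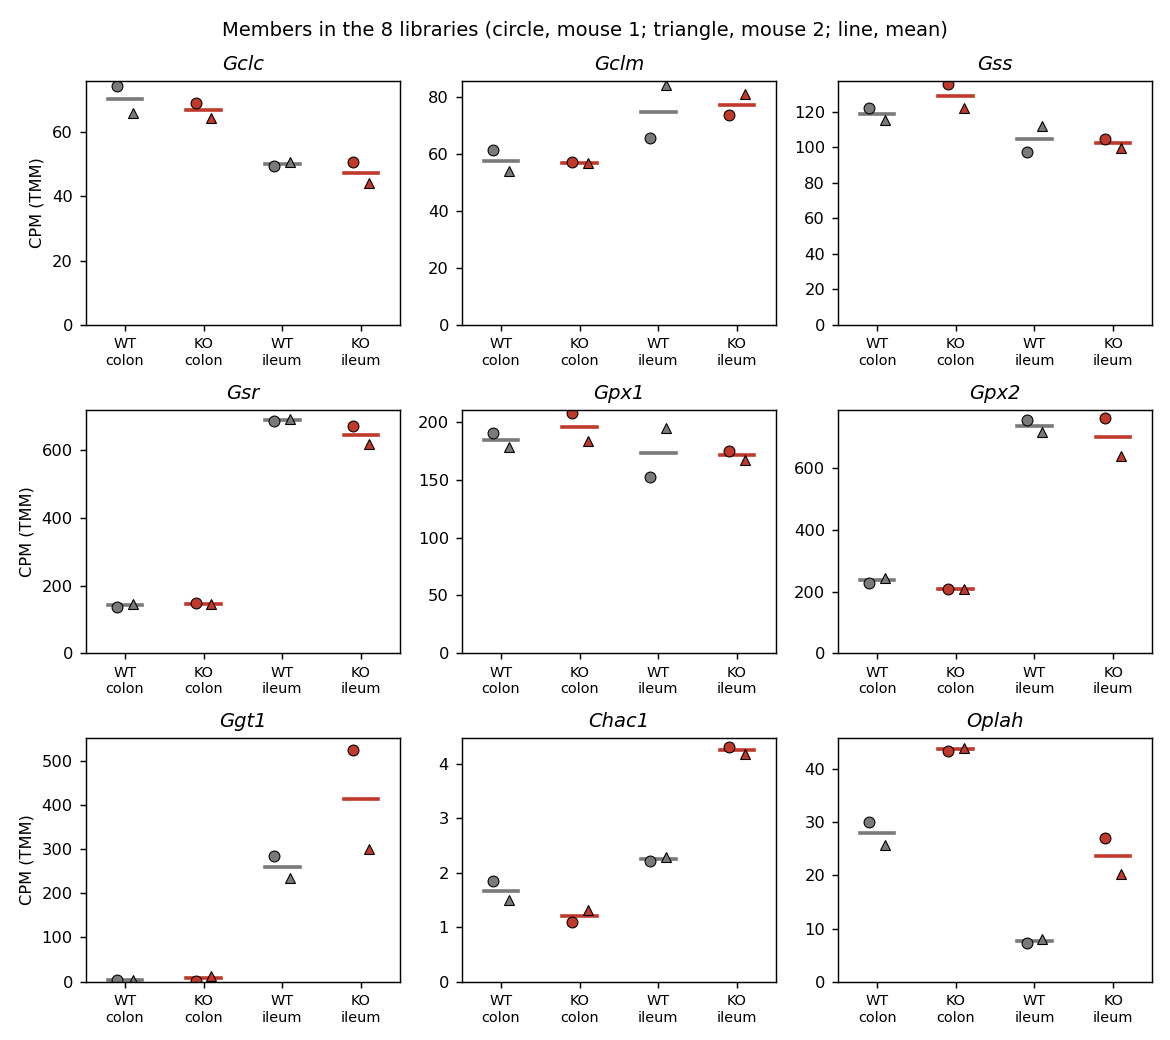
Level of each of the 9 genes in CPM (linear axes from 0) in the 2 libraries of each group, with a circle for mouse 1, a triangle for mouse 2 and a line for the mean. Oplah was at 43.4 and 44.0 CPM in the DDX5ΔIEC colon and at 7.24 and 8.12 CPM in the WT ileum.

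The first enzyme of synthesis, glutamate-cysteine ligase, has a catalytic subunit, Gclc (ENSMUSG00000032350.9, GRCm38 chr9:77754535-77794485, plus strand), and a modifier subunit, Gclm (ENSMUSG00000028124.15, chr3:122245557-122270732, plus strand). Gclc was at 66.1 and 74.4 CPM in the WT colon and at 64.4 and 69.0 in the DDX5ΔIEC colon, and at 49.4 and 50.6 in the WT ileum and 44.0 and 50.7 in the DDX5ΔIEC ileum. The genotypes overlapped in both tissues, with a log2 fold change of -0.08 ± 0.09 (SE) in the colon and -0.08 ± 0.14 in the ileum. Gclm was at 53.8 and 61.2 CPM in the WT colon against 56.6 and 57.2 in the DDX5ΔIEC colon, and at 65.5 and 84.0 in the WT ileum against 73.6 and 80.8 in the DDX5ΔIEC ileum. Here too the knockout libraries lay inside the wild-type range in both tissues.

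Gss encodes glutathione synthetase, which adds glycine (ENSMUSG00000027610.17, chr2:155563181-155592810, minus strand). Its levels spanned 115.5 to 135 CPM over the 4 colon libraries and 97.3 to 112 CPM over the 4 ileum libraries, and the genotypes overlapped in each. Of its exonic bases, 15.4% are shared with genes on the other strand, among them Acss2. The libraries were stranded, but the strand setting used for counting is not given in the sources used here, so reads of such partners cannot be told apart.

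The balance of the ligase subunits differed between tissues. Per kilobase, the level of Gclc was 1.90 to 2.05 times that of Gclm within each of the 4 colon libraries and 0.909 to 1.26 times in the 4 ileum libraries. These are ratios within a library and need no scaling between libraries.

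Glutathione reductase is encoded by Gsr (ENSMUSG00000031584.16, chr8:33652523-33698163, plus strand). Gsr was at 138 and 147 CPM in the WT colon, 145 and 148 in the DDX5ΔIEC colon, 687 and 692 in the WT ileum, and 617 and 672 in the DDX5ΔIEC ileum. In the ileum both knockout libraries lay below both wild-type libraries, by a small amount, with a log2 fold change of -0.10 ± 0.18. In the colon it was 0.03 ± 0.08.

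The peroxidases of the set both use selenium. Gpx1 is found in most cells (ENSMUSG00000063856.7, chr9:108338903-108340343, plus strand) and Gpx2 mainly in the gastrointestinal epithelium (ENSMUSG00000042808.8, chr12:76792333-76795554, minus strand). Gpx1 stayed between 152 and 208 CPM over all 8 libraries, with log2 fold changes of 0.08 ± 0.08 in the colon and -0.01 ± 0.15 in the ileum. Gpx2 was at 229 and 245 CPM in the WT colon and at 207 and 209.5 in the DDX5ΔIEC colon, where the groups did not overlap, with a log2 fold change of -0.20 ± 0.08. In the ileum it was at 716 and 757 CPM in WT against 640 and 762 in DDX5ΔIEC, and the groups overlapped. Of the 50-base words of the Gpx2 transcripts, 5.97% also occur in the pseudogene Gpx2-ps1, a small part of the gene.

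Within a library, the level of Gpx2 per kilobase was 0.445 to 0.616 times that of Gpx1 in the colon and 1.64 to 2.23 times in the ileum. Per kilobase, the peroxidase with the higher level was Gpx1 in the 4 colon libraries and Gpx2 in the 4 ileum libraries. This order in the colon rests on the lengths used, 3222 bases for Gpx2 and 1441 for Gpx1, which span the whole locus of each. Before division by length, Gpx2 was at 229 and 245 CPM against 190 and 178 for Gpx1 in the WT colon. In the DDX5ΔIEC colon it was at 207 and 209.5 CPM against 208 and 184.

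Ggt1 encodes the gamma-glutamyltransferase of the brush border of absorptive epithelia (ENSMUSG00000006345.10, chr10:75561604-75586200, plus strand). It was at 3.57 CPM in both WT colon libraries and at 2.59 and 12.6 in the DDX5ΔIEC colon, from 47 and 276 counts. The knockout libraries thus lay on either side of the wild type, and the log2 fold change of 0.78 ± 0.56 rested on replicate 2. Without that library it was -0.46, and without DDX5ΔIEC colon replicate 1 it was 1.81.

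The library with the high value also had the highest summed level of ileal markers in the colon. The 12 markers of small intestinal enterocytes summed to 666 CPM in DDX5ΔIEC colon replicate 2 against 486 in replicate 1 and 507 and 546 in WT. Sucrase-isomaltase, Sis, was at 12.2 CPM in it against 0.386, 4.67 and 6.67 in the others, and the bile acid transporter Slc10a2 at 65.4 CPM against 9.27 to 39.9. The 12 markers did not all go this way. Ada was at 3.81 ± 0.0857 CPM (SD, n = 2) in the DDX5ΔIEC colon against 6.16 ± 0.124 in WT, and Apoa4 at 0.0960 ± 0.0577 against 0.473 ± 0.669. By the study's criterion 1 of the 8 tested was higher in the knockout colon and 1 lower, against 3.04% and 3.67% of all genes. Fgf15, a hormone of the ileal enterocyte, had 0 counts in all 4 colon libraries, which at a floor of 3 counts allows at most 0.166 CPM in a library. The part of these markers in the Ggt1 value was not tested.

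In the ileum Ggt1 was at 236 and 284 CPM in WT and at 299.5 and 525 in DDX5ΔIEC. Both knockout libraries were above both wild-type libraries, replicate 1 (525 CPM) by far, and the log2 fold change was 0.62 ± 0.18. Without DDX5ΔIEC ileum replicate 1 it was 0.20 ± 0.54 and without replicate 2 it was 1.03 ± 0.54, in fits that pool the spread of the 7 other libraries. The enterocyte markers, all 12 above 0 in each ileum library, summed to 16255.2 CPM in that replicate 1, to 8936.65 in replicate 2, and to 11563.7 and 11768.0 in WT. Their part in the Ggt1 difference was not tested.

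Chac1, a cytosolic gamma-glutamylcyclotransferase and a known target of the ATF4 and CHOP stress response, had the fewest reads of the set (ENSMUSG00000027313.3, chr2:119351229-119354381, plus strand). Its counts were 35 and 34 in the WT colon, 20 and 29 in the DDX5ΔIEC colon, 48 and 33 in the WT ileum, and 46 and 39 in the DDX5ΔIEC ileum. In CPM these were 1.84 and 1.497, 1.10 and 1.32, 2.22 and 2.29, and 4.31 and 4.18. The knockout libraries were below the wild type in the colon and above it in the ileum, with log2 fold changes of -0.45 ± 0.32 and 0.92 ± 0.30. The 95% Poisson intervals, which cover counting error only, ran from 2.97 to 5.75 CPM over the DDX5ΔIEC ileum libraries and from 1.58 to 3.22 CPM over the WT ileum libraries, and so touched. In the colon they ran from 0.674 to 1.90 CPM over the DDX5ΔIEC libraries and from 1.04 to 2.56 CPM over the WT libraries, and overlapped.

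Oplah (ENSMUSG00000022562.15, chr15:76296601-76328015, minus strand) encodes the enzyme that hydrolyses 5-oxoproline with the use of ATP and closes the cycle. In the colon it was at 25.7 and 30.1 CPM in WT (584 and 573 counts) and at 43.4 and 44.0 CPM in DDX5ΔIEC (786 and 966 counts). In the ileum it was at 7.24 and 8.12 CPM in WT (157 and 117 counts) and at 27.0 and 20.3 CPM in DDX5ΔIEC (288 and 190 counts). The groups did not overlap in either tissue, and the DDX5ΔIEC ileum reached the level of the WT colon in 1 of its 2 libraries.

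The knockout mean of Oplah was 1.56 times the wild-type mean in the colon, a log2 fold change of 0.64 ± 0.11, and 3.09 times in the ileum, a log2 fold change of 1.63 ± 0.19. Leaving out each library in turn kept the value between 0.54 and 0.76 in the colon and between 1.40 and 1.83 in the ileum. Leaving out the repeat-like genes gave 1.64 in the ileum.

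Of the exonic bases of Oplah, 11.7% are shared with Exosc4 and Smpd5 on the other strand. Exosc4, a subunit of the RNA exosome, had log2 fold changes of 0.05 ± 0.13 in the colon and 0.14 ± 0.17 in the ileum. Smpd5 had 3 to 13 counts per library and was too low to be fitted within a tissue. The part of reads from these partners in the Oplah values was not tested.

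Several cell type markers moved beside Oplah in the colon. The 8 colonocyte markers summed to 5187.85 and 5574.69 CPM in DDX5ΔIEC against 4312.98 and 4533.04 in WT. By the study's criterion 4 of the 8 were higher and none lower, where 3.04% of all genes were higher and 3.67% lower. The 12 goblet, Paneth and tuft cell markers summed to 26299.5 and 39785.0 CPM against 44850.4 and 49680.9, with 6 of the 10 tested lower by the criterion and none higher. The 17 leukocyte markers summed to 8.55 and 19.6 CPM against 35.2 and 46.5, with 1 to 3 of the 17 at 0. Of the 9 of them tested, 5 were lower by the criterion and none higher. The 9 markers of crypt stem and cycling cells overlapped, at 483 to 649 CPM against 621 to 671. In the ileum the colonocyte sums overlapped, at 992 to 1100.37 CPM in DDX5ΔIEC against 1056.94 to 1137.61 in WT, and so did those of epithelial, crypt and leukocyte markers. The goblet, Paneth and tuft cell sums did not, at 37468.5 and 40748.2 CPM in DDX5ΔIEC against 29292.7 and 36444.9 in WT. The sum thus went the other way from the colon, but its genes did not all do so. By the criterion 2 of the 12 were higher in the ileum and 3 lower, against 3.87% and 3.48% of all genes. The tuft cell markers Dclk1, Trpm5 and Pou2f3 had lower means in DDX5ΔIEC in both tissues. In the ileum these were 89.8, 78.6 and 9.74 CPM against 161.8, 127.55 and 14.9 in WT. The part of these cell types in the Oplah values was not tested.

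**Figure D2:**
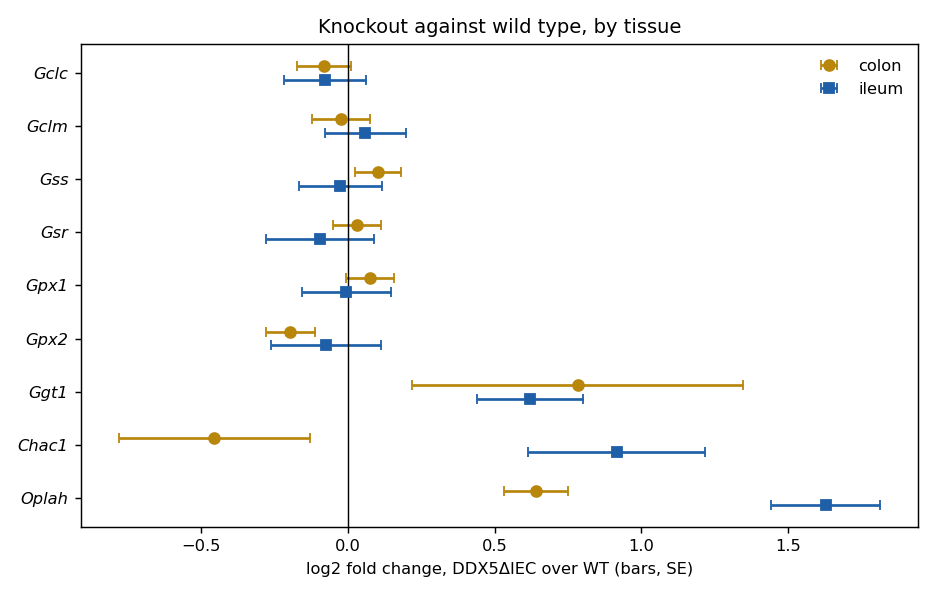
Log2 fold change of DDX5ΔIEC over WT for each gene, with bars of 1 SE, from the colon fit (circles) and the ileum fit (squares), 2 mice per genotype. Oplah lay at 0.64 in the colon and 1.63 in the ileum, while Gclc, Gclm, Gss, Gsr, Gpx1 and Gpx2 lay between -0.20 and 0.10.

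By the study's criterion, a change of 0.5 or more on the log2 scale in either direction with an unadjusted p under 0.05, 1 of the 9 genes (Oplah) was called in the colon, where 6.71% of the 15362 genes tested were called. In the ileum 3 of the 9 (Oplah, Ggt1 and Chac1) were called, where 7.35% of 14068 were. After Benjamini-Hochberg adjustment in edgeR the counts were 0 of 9 in the colon (background 0%) and 1 of 9, Oplah, in the ileum (background 0.697%). The ileum count fell to 0 of 9 without the replicate block and when any 1 of the 4 ileum libraries was left out. In the colon 1 of the 9 had an unadjusted p under 0.05 in edgeR, and also 1 in DESeq2 with the replicate block. By adjusted p, DESeq2 called none in the colon with the replicate block and 1 without it. The median log2 fold change of the set was 0.03 in the colon and -0.01 in the ileum, against medians of 0.00 over all genes in both. Since these contrasts served to choose the set, nothing is read from these counts. Groups did not overlap for 3 of the 9 in the colon and 4 in the ileum. Over all genes of the colon fit, both knockout libraries lay above both wild-type libraries in 22.5% and below them in 22%, and over those of the ileum fit in 19% and 20.5%.

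Comparing the tissues of the same mouse addressed where along the gut each step is expressed. In WT, 5 of the 9 genes passed an adjusted p of 0.05 in edgeR's quasi-likelihood test with the mouse as a block, 3 higher and 2 lower in the ileum, where 37.7% of all 16178 genes passed (19.5% higher, 18.3% lower). Whether 5 of 9 exceeds that background was not tested.

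Ggt1 was higher in the ileum by a log2 fold of 6.17 ± 0.68 (edgeR adjusted p = 0.00059), with ratios within a mouse of 6.31 and 6.05 on the log2 scale. Gsr was higher by 2.28 ± 0.12 (edgeR adjusted p = 2.6e-05) and Gpx2 by 1.64 ± 0.13 (edgeR adjusted p = 0.000174). For each of the 3 the ileum libraries were above all colon libraries, in 4 of 4 mice when the knockout is counted.

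Oplah fell by 1.86 ± 0.16 on the log2 scale from colon to ileum (edgeR adjusted p = 0.000212), and Gclc fell by 0.49 ± 0.10 (edgeR adjusted p = 0.00928). The Gclc call was lost without WT ileum replicate 1, WT ileum replicate 2 or WT colon replicate 1, with adjusted p of 0.0724, 0.0643 and 0.110. Gclm, Chac1, Gss and Gpx1 did not pass, with log2 folds of 0.37 ± 0.14, 0.43 ± 0.28, -0.19 ± 0.11 and -0.10 ± 0.13.

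**Figure D3:**
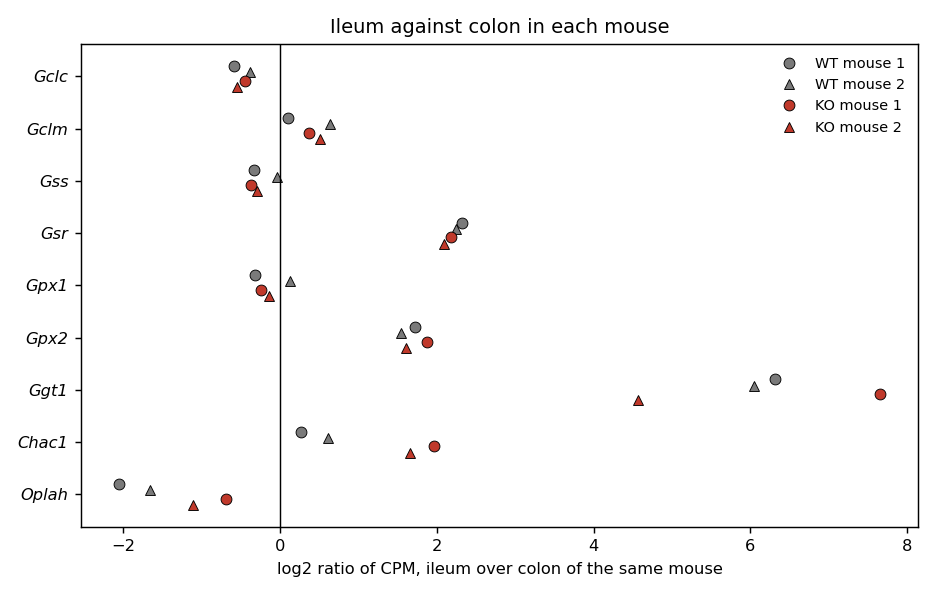
Log2 ratio of CPM in the ileum over CPM in the colon of the same mouse, for each gene and each of the 4 mice (grey, WT; red, DDX5ΔIEC). Ggt1 lay between 4.57 and 7.66, and Oplah at -2.05 and -1.66 in the WT mice and -0.68 and -1.11 in the DDX5ΔIEC mice.

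In the DDX5ΔIEC mice 8 of the 9 genes passed the same test, against 37.8% of all genes. This tissue difference contains the knockout effects that chose the set, so nothing is read from the count or from the p-values. Ggt1, Gsr and Gpx2 were again higher in the ileum, by 5.87 ± 0.67, 2.14 ± 0.12 and 1.75 ± 0.14, and Chac1 was higher by 1.80 ± 0.29 (edgeR adjusted p = 0.00315). Oplah fell by 0.89 ± 0.15 on the log2 scale (edgeR adjusted p = 0.00401) and Gclc by 0.50 ± 0.10 (edgeR adjusted p = 0.00943). Gss and Gclm passed narrowly, with adjusted p of 0.0499 and 0.0486 from edgeR. Gss failed without the block (0.0502), with RLE scaling (0.0744), without the repeat-like genes (0.0529) and with DESeq2 (0.157), and Gclm failed without the filter on low counts (0.0669) and with DESeq2 (0.0721). Both failed when any 1 of the 4 DDX5ΔIEC libraries was left out, and Gclc failed without DDX5ΔIEC ileum replicate 2 (0.0572) or colon replicate 1 (0.0603). Gpx1 did not pass.

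That a gene passed in one genotype and not in the other does not show a difference. The interaction of tissue and genotype measures it, and equals the difference of the knockout effects that chose the set. None of the 9 had an adjusted p under 0.05 in edgeR, where 0.00618% of all genes did, 2 had an unadjusted p under 0.05, and DESeq2, which gives Chac1 no adjusted p, called none, and nothing is read from these counts. The ileal knockout effect exceeded the colonic one by 0.97 ± 0.22 on the log2 scale for Oplah and by 1.37 ± 0.40 for Chac1. For the other 7 the difference lay between -0.31 and 0.11.

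To compare genes with each other, levels were divided by the exonic length that the tables give. For Gpx1 and Gpx2 this length spans the whole locus, and the order depends on the lengths used. In the WT colon the order of the means was Gpx1 (128 ± 6.02 CPM per kilobase, SD, n = 2), Gpx2 (73.6 ± 3.71), Gsr (51.7 ± 2.22), Gss (20.1 ± 0.822), Gclc (18.6 ± 1.56), Gclm (9.14 ± 0.827), Oplah (4.78 ± 0.532), Ggt1 (1.05 ± 0.0013) and Chac1 (1.02 ± 0.148). Neighbours overlapped for Gss with Gclc and for Ggt1 with Chac1.

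In the WT ileum Gsr came first (250.3 ± 1.33), followed by Gpx2 (229 ± 8.96), Gpx1 (120.4 ± 21.0) and Ggt1 (76.1 ± 9.94). Gss (17.7 ± 1.76), Gclc (13.3 ± 0.229) and Gclm (11.9 ± 2.08) lay below them, with Gclc and Gclm overlapping. Chac1 (1.38 ± 0.0321) and Oplah (1.32 ± 0.106) came last and overlapped. Oplah was thus among the lowest levels of the set in the WT ileum.

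In the DDX5ΔIEC colon the order of the 9 was that of the WT colon, with overlap only of Ggt1 (2.22 ± 2.07) and Chac1 (0.741 ± 0.0942). In the DDX5ΔIEC ileum Ggt1 (121 ± 46.7) stood beside Gpx1 (119 ± 3.91), and Oplah (4.05 ± 0.805) stood above Chac1 (2.59 ± 0.0581) without overlap.

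**Figure D4:**
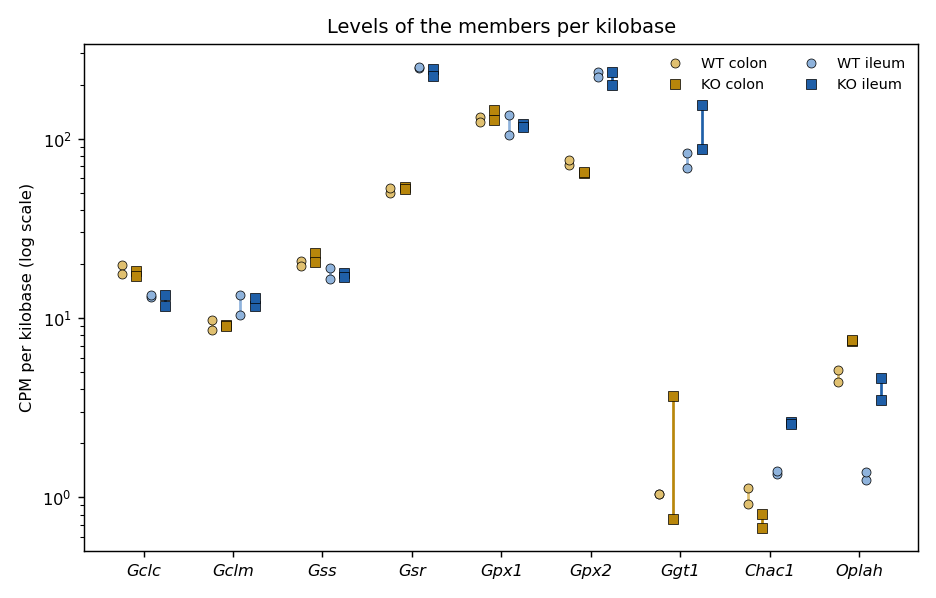
CPM per kilobase of exonic length (log scale) of each gene in the 4 groups, with both libraries of a group as points joined by a line. Gsr and Gpx2 were at the top in the ileum, near 250.3 and 229 in WT, and Ggt1 moved from 1.05 in the WT colon to 76.1 in the WT ileum.

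The genes whose pattern over the 8 libraries was most like that of Oplah were found by Pearson's r of log2 CPM among 11972 protein-coding genes. Among the first of them were Xkr6 (r = 0.986), Ubr7 (0.985), Slc2a13 (0.979) and P3h1 (0.979). After each tissue was centred, r was 0.975, 0.974, 0.965 and 0.956 for the same genes. The points share libraries and group differences, and 204 genes reached an r of 0.9, so the likeness is a description. Slc2a13, a transporter of myo-inositol, was at 54.8 and 56.8 CPM in the WT colon, 76.2 and 81.6 in the DDX5ΔIEC colon, 24.6 and 26.4 in the WT ileum, and 44.7 and 46.0 in the DDX5ΔIEC ileum.

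Around the 9 genes, 122 further genes of the pathway were taken in 8 lists. In the colon 4 of the 114 tested met the study's criterion upwards and 4 downwards, and in the ileum 4 of 115 upwards and 3 downwards, against 3.04% higher and 3.67% lower of all genes in the colon and 3.87% and 3.48% in the ileum. The shares were near those of all genes. None passed the adjusted p in edgeR in either tissue, while 18 had an unadjusted p under 0.05 in each. By adjusted p, DESeq2 with the block called 2 in the colon and none in the ileum.

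Among the 11 other genes of the gamma-glutamyl cycle and of dipeptide breakdown, 7 were tested in each tissue, and 1 met the criterion. Anpep, an aminopeptidase of the brush border, was at 1.85 and 2.15 CPM in the WT colon and 3.31 and 3.37 in the DDX5ΔIEC colon, with a log2 fold change of 0.73 ± 0.25 (edgeR adjusted p = 0.375). Ggct and Chac2, the other gamma-glutamylcyclotransferases, did not meet it in either tissue. The list median was -0.17 in the colon and 0.14 in the ileum.

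Of the 19 genes that supply cysteine, glutamate and glycine, 3 met the criterion downwards in the colon. Slc7a11, the exchanger that imports cystine for glutamate, was at 6.72 and 9.38 CPM in WT and at 3.48 and 3.78 in DDX5ΔIEC, a log2 fold change of -1.15 ± 0.21 (edgeR adjusted p = 0.260). Slc1a1, a glutamate and cysteine transporter, was at 67.4 and 68.4 CPM against 40.6 and 40.7, a log2 fold change of -0.75 ± 0.09 (edgeR adjusted p = 0.166). Cdo1, which oxidises cysteine, had -0.52 ± 0.14.

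In the ileum Slc7a11 was at 4.52 and 4.86 CPM in WT against 4.31 and 7.82 in DDX5ΔIEC, so the groups overlapped. The 1 gene of this list that met the criterion there was Glul, glutamine synthetase, at 54.9 and 57.0 CPM in WT and 69.2 and 95.1 in DDX5ΔIEC, a log2 fold change of 0.54 ± 0.15 (edgeR adjusted p = 0.154). Without DDX5ΔIEC ileum replicate 2 it was 0.33 and no longer met it.

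Of 22 other peroxidases, glutaredoxins, thioredoxins, peroxiredoxins, superoxide dismutases and catalase tested, 1 met the criterion in the colon and none in the ileum. That was Prdx6, a peroxiredoxin that uses glutathione, with 0.70 ± 0.21 (edgeR adjusted p = 0.339), and it no longer met it without DDX5ΔIEC colon replicate 1, at 0.27. None of the selenoproteins and factors of selenocysteine insertion, 21 in the colon and 22 in the ileum, met the criterion. Of the 10 genes of NADPH supply, Me1, malic enzyme, had -1.24 ± 0.35 in the colon (edgeR adjusted p = 0.332), and none met the criterion in the ileum.

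Export and the glyoxalase system gave 1 gene of 10 upwards in the colon and, in the ileum, 1 upwards and 2 downwards. Abcc2, an apical exporter of glutathione conjugates, was the one upwards in both, by 1.26 ± 0.34 in the colon and 0.72 ± 0.18 in the ileum (edgeR adjusted p = 0.322 and 0.126). It no longer met the criterion without DDX5ΔIEC replicate 1 in either tissue, at 0.72 and 0.39. Abcc4, another exporter, had -0.61 ± 0.23 and Slc25a40, a mitochondrial carrier of glutathione, -0.55 ± 0.18 in the ileum. Slc25a39, another such carrier on this list, went the other way there. It was at 149 ± 8.52 CPM (SD, n = 2) in DDX5ΔIEC against 114 ± 1.91 in WT, and did not meet the criterion.

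Among the 20 NRF2 factors and targets, Ephx1, microsomal epoxide hydrolase, was higher in both tissues by the criterion, at 1.03 ± 0.13 in the colon and 1.51 ± 0.33 in the ileum (edgeR adjusted p = 0.166 and 0.0743). Slc7a11 and Me1, also on this list, met the criterion downwards in the colon, at -1.15 ± 0.21 and -1.24 ± 0.35 (edgeR adjusted p = 0.260 and 0.332). Nqo1, a quinone reductase, had -0.81 ± 0.16 in the ileum (edgeR adjusted p = 0.0528). The list median was -0.05 in the colon and 0.02 in the ileum.

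Chac1 was set beside the 20 factors and targets of ATF4 and CHOP. In the ileum 1 of 20, Cebpb, met the criterion, at 1.05 ± 0.22 (edgeR adjusted p = 0.0686), but not without DDX5ΔIEC ileum replicate 1, at 0.58. In the colon 1 of the 19 tested met it, Slc7a11, which was lower. The list median was 0.20 in the ileum and -0.19 in the colon. Atf4 itself was at 176 and 205 CPM in the WT ileum and 169 and 198 in the DDX5ΔIEC ileum, and Trib3, another target, at 3.82 and 4.29 against 3.00 and 9.93. Both overlapped between the genotypes in the ileum. In the colon Atf4 was at 137 ± 16.3 CPM (SD, n = 2) in DDX5ΔIEC against 168 ± 8.35 in WT. Its log2 fold change there was -0.31 ± 0.08, short of the criterion. The part of Atf4 in the Chac1 values was not tested.

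Between tissues the same pathway genes differed widely. In WT 72 of the 117 tested passed the adjusted p of edgeR, 35 higher and 37 lower in the ileum, against 37.7% of all genes, 19.5% higher and 18.3% lower. Whether the lists exceed that background was not tested. Beside Ggt1, 4 of the 8 tested genes of the gamma-glutamyl cycle and peptide breakdown were higher in the ileum: Anpep by 10.74 ± 0.29, Cndp2, a cytosolic dipeptidase, by 3.34 ± 0.16, Lap3, leucine aminopeptidase, by 1.41 ± 0.21 and Dpep1, a membrane dipeptidase, by 1.36 ± 0.25 on the log2 scale, with no gene of this list lower.

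Beside Gsr, which consumes NADPH, 6 of the 10 genes of NADPH supply were higher in the ileum and 2 lower. Me1 was higher by 4.07 ± 0.25, and G6pdx, Pgd and Tkt of the pentose phosphate pathway by 1.46 ± 0.13, 1.16 ± 0.13 and 0.95 ± 0.12. The transporters of cystine Slc7a9 and Slc3a1 were higher by 6.28 ± 0.37 and 3.69 ± 0.39, while Cbs, of transsulfuration, fell by 5.38 ± 0.23 and Glul fell by 3.19 ± 0.15 on the log2 scale. Prdx6 fell by 3.19 ± 0.22 and Srxn1, sulfiredoxin, was higher by 2.05 ± 0.18. The enterocyte markers that define the tissue were higher in the ileum for 12 of 12, and their part in these differences was not tested.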

How the data were processed

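IECs from the colon and ileum of 2 WT and 2 DDX5ΔIEC mice gave 8 RNAseq libraries. According to the methods and the submitters' processing notes, the authors aligned reads to mm10 with STAR 2.6.1a, counted uniquely mapped reads over GENCODE exons with featureCounts, and ran DESeq2 1.18.1 with a harvest covariate. The deposited tables, 1 per tissue, hold raw counts, the authors' normalized signal (counts divided by size factors), gene length and columns of their own comparison with its fold changes and p-values. The signal and the comparison columns were not used, and the number of other columns of per-sample values was 0. Symbols that a spreadsheet had rewritten as dates, 25 and 26 in the colon and ileum tables, were put back.

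Groups came from the labels. Counts were filtered with filterByExpr (minimum count 10), scaled with TMM and tested with the quasi-likelihood test of edgeR 4.0.16 in R 4.3.3. Genotypes were compared within a tissue with the replicate number as a block, and tissues over all 8 libraries with the mouse as a block, since mouse numbers in the study's supplement tie the libraries of a mouse together. P-values were adjusted by Benjamini-Hochberg over all genes tested. SE is the fold change divided by the root of F. Replicates are separate mice, 2 per group. An exact permutation test of 2 against 2 could not go below a two-sided p of 0.333. The steps were tested on simulated data with known changes.

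The members and the 8 pathway lists and 7 marker lists were chosen with earlier results of these data known. The text names all members, Ddx5 and Vil1, and from each list and contrast up to 4 genes with an adjusted p under 0.05 or else up to 3 by the study's criterion. Atf4, Trib3, Ggct, Chac2, Slc25a39, Exosc4, Smpd5, Acss2 and the single markers were named outside that rule, after their values were seen. Loci and overlaps are from GENCODE vM21 on GRCm38, in which all 9 gene versions match. Alternatives were the fit without the block, DESeq2 1.42.0, RLE scaling, no filter, 8 libraries in one fit, no repeat-like genes, and leaving out each library. Of the 5 genes most like Oplah in pattern, 1 is not reported here.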

Additional observations from a re-analysis of the deposited data

Results flagged for a closer look

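Chac1 stood out because its knockout effect had opposite signs in the tissues: both DDX5ΔIEC libraries were below both WT libraries in the colon and above them in the ileum. Over all genes, 22% were below in this way in the colon and 19% above in the ileum, and the share with both was not counted. The colonic effect did not meet the study's criterion, and its counting intervals overlapped between the genotypes. The ileal effect minus the colonic effect was 1.37 ± 0.40 on the log2 scale. No test is given for it, since the set was chosen by these same knockout effects. It rests on 20 to 48 counts per library. Leaving out each library in turn kept it between 1.21 and 1.51. No group has 4 or more samples, so no group could be searched for an outlying sample.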

How the results depend on the processing

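Of 477 values of the members under the alternatives, 424 were counted as unchanged. For the tissue differences this meant the same direction and side of the threshold. For genotype effects and the interaction it meant a move within the gene's own spread between replicates, whatever the side of the threshold. A gene with a wide spread, such as Ggt1 in the colon, could thus move far and still be counted as unchanged. The exceptions came from fewer libraries, another tool, scaling or filter, or the fit without the block, and their cause was not tested. The count of pathway genes meeting the study's criterion in the colon was 8, and 5 with DESeq2, with or without the replicate block. The number of members with an adjusted p for the interaction went from 0 to 1 (Oplah) when no filter was set on low counts. Leaving out each library in turn gave 1 to 2 members meeting the criterion in the colon (2 without DDX5ΔIEC colon replicate 1), 2 of 3 in the ileum for each of its 4 libraries (also 2 with blocked DESeq2 and with 8 libraries in one fit), 6 to 15 pathway genes in the ileum (15 without DDX5ΔIEC ileum replicate 2), and 5 to 6 of 8 members in the ileum against colon test of DDX5ΔIEC (5 without DDX5ΔIEC ileum replicate 2 or colon replicate 1). Leaving out WT ileum replicate 1 turned the WT tissue difference of Gpx1 from -0.10 to 0.0746 (the range over left-out libraries was -0.28 to 0.0746), neither past the threshold, and gave Gclm an adjusted p of 0.0326.

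The study describes littermate pairs and a harvest covariate, but not which replicate numbers belong together across genotypes. Deviations of same-numbered libraries had r = 0.00559 in the colon and 0.240 in the ileum, while libraries of one mouse had 0.140 in WT and 0.142 in DDX5ΔIEC. Without the replicate block, the number of members meeting the criterion was again 1 for the colon and 3 for the ileum, 5 passed the tissue test in WT, and the interaction gave 0. Members passing the tissue test in DDX5ΔIEC went from 8 to 7, which was also the count with RLE scaling, without the filter and without the repeat-like genes, and 6 with DESeq2. Members with an adjusted p under 0.05 in the ileum went from 1 (Oplah) to 0. Pathway genes without the block were 9, 7 and 66 in the colon, the ileum and the WT tissue test. Over all genes, adjusted calls in the ileum were 98 with the block, 1 without it, 39 with DESeq2, 20 without the repeat-like genes and 423 without the filter. In the colon they were 0, against 5 without the block and 116 with DESeq2, and genes by the criterion were 1031, 508 with DESeq2 and 1794 without DDX5ΔIEC colon replicate 2. The 20 to 48 counts of Chac1 give it the widest relative counting error of the set; how large a change could be detected at that depth was not tested.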
